A study of Caenorhabditis elegans with 2 samples.

Results

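The cuticle collagen genes named col followed by a number were examined for binding of LAG-1, the DNA-binding protein of Notch signalling, in whole Caenorhabditis elegans. Of 19973 protein-coding genes on the nuclear chromosomes, 156 carry such a name in Ensembl release 115. The group was picked because several reproducible peaks of this experiment lie nearest to col genes, so counts of peaks at these genes describe the choice and were not tested. For each gene the strongest entry of the deposited replicate ranking was taken, with its summit between 2000 bp upstream of the 5' end and the 3' end of the gene.

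The series profiled LAG-1 by chromatin immunoprecipitation and sequencing (ChIP-seq) in 1 group of 2 biological replicates, so no conditions could be compared. Both replicates were strain RW12314, in which the lag-1 gene on chromosome IV carries the insertion st12314, lag-1::TY1::EGFP::3xFLAG, made by CRISPR. Worms were synchronised as starved L1 larvae after bleaching and collected whole as young adults at 62 hours, and sonicated chromatin was precipitated with an antibody to GFP. Signal from epidermis, germline and every other tissue is therefore pooled, and ChIP from worms without the tag was not analysed here. The files give no read totals, so the depth of each replicate is unknown.

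The cuticle is the collagen-rich outer coat of the worm, secreted by the epidermis and rebuilt at each larval moult. Its collagens are short secreted proteins built on a repeat of glycine followed by any pair of residues (Gly-X-Y), which folds into a triple helix and is then cross-linked. Most are expressed in epidermal cells, many in waves timed to the moulting cycle or to a single stage. LAG-1 acts in the nucleus downstream of the Notch receptors LIN-12 and GLP-1, and CSL proteins such as LAG-1 recognise the letters GTGGGAA or ATGGGAA, called a LAG-1 site here.

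The name of the group was checked against annotation and sequence. All 156 genes matched RefSeq, where the product name of 147 holds the word collagen and that of the other 9, col-163 among them, names a Col_cuticle_N domain. Runs of at least 3 Gly-X-Y triplets made up at least 25% of the annotated protein in 154 genes, with a median of 51.0%. The exceptions were col-163, at 22.3% of 740 residues, and col-17, where the annotated coding sequence gave 0% of 277 residues. The col-17 coding sequence was 94.8% identical to that of col-73, whose protein was 53.7% Gly-X-Y. The reading frame was not checked, so the 0% does not show that col-17 lacks the repeat. The col genes were short, with a median length of 1220 bp against 2027 bp over all protein-coding genes. Coding sequences of col genes had a median GC content of 55.1%.

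LAG-1 ChIP gave a reproducible peak in the searched span of 4 col genes, namely col-94, col-163, col-48 and col-71. A peak here means an entry of the authors' conservative list, which keeps entries with an irreproducible discovery rate (IDR, an estimate of how many entries at or above a given rank fail to repeat) of 0.01 or below between replicates. The 4 genes are 2.56% of 156 (Wilson 95% interval 1.00% to 6.41%; all such intervals cover counting error only). Over all protein-coding genes the share was 1.49%, and over the genes of 2500 bp or less it was 1.02%, so the share at col genes was near the background. Another peak had the 5' end of a col gene, col-176, as its nearest protein-coding start, but its summit lay 643 bp past the 3' end of that gene and so outside the span. All 5 peaks were 236 bp long.

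The strongest of these peaks was at col-94, at III:10989533-10989768 on ce11, where the signal was 96.5 and the IDR 0.00117. Signal is the strength that the authors' peak caller gave each entry relative to the control, its unit is not stated in the files, and this peak ranked 39 of 289 by it. The summit lay 1778 bp upstream of the 5' end of col-94, in an intron of dhc-4, a dynein heavy chain gene on the opposite strand. It also lay 28 bp from the start of an annotated small nuclear RNA (snRNA) gene, which begins inside the peak on the plus strand. No LAG-1 site lay within 100 bp of this summit. The signal in each replicate's own ranking was 48.4 in replicate 1 and 52.5 in replicate 2, and the peak was in the own list of both replicates. No other col gene had a peak in either of those lists. The share of all genes with one was 0.21% in the own list of replicate 1 and 0.391% in that of replicate 2.

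A small RNA gene beside a peak was not particular to col-94. Among all 289 peaks, 46 (15.9%) lay within 500 bp of a small RNA gene, meaning a gene for a tRNA, snoRNA, snRNA, rRNA, miRNA or scRNA. The part of the snRNA gene in the signal assigned to col-94 was not tested.

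The peak at col-163, at V:20600816-20601051, was the 1 col peak that held LAG-1 sites. Its signal was 77.1, rank 83 of 289, with an IDR of 0.00254, and its summit lay 839 bp into the gene, in a coding exon. The sites are in capitals in the plus strand of the peak, where the letters TTCCCAC are GTGGGAA read on the minus strand:
col-163: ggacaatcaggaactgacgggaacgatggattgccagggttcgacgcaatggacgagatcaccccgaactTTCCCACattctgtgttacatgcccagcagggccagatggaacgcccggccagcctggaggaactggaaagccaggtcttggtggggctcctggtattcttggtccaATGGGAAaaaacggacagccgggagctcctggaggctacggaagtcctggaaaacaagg
GTGGGAA lay at V:20600886-20600892 on the minus strand and ATGGGAA at V:20600993-20600999 on the plus strand, starting 48 bp before and 59 bp after the summit. Replicate 1 gave 37.7 and replicate 2 gave 34.4, and neither replicate's own list held the peak. No other gene overlapped the summit: a pseudogene lay 1442 bp away, ttr-11, of the transthyretin-related family, began 2380 bp away, and the nearest small RNA gene was 93187 bp away. The closest col protein to that of col-163 was that of col-99, at 20.9% identity. For col-94 it was that of col-92, at 99.7%.

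The peak at col-71, at II:3502698-3502933, had a signal of 57.8, rank 242, at an IDR of 0.00680, the value closest to the threshold among the 4 genes. Its summit was intergenic, 246 bp upstream of col-71 and 152 bp upstream of the divergent gene Y49F6B.2, whose start was the nearer. RefSeq names an Fcf2 pre-rRNA processing domain for Y49F6B.2. The replicates gave 30.2 and 29.0. The protein of col-71 was closest to those of col-3 and col-125, each at 46.4% identity. The peak at col-176, at X:10079253-10079488, had a signal of 61.2 at an IDR of 0.00791, with 32.5 in replicate 1 and 26.4 in replicate 2. Its summit was 1774 bp from the 5' end of col-176, and a non-coding RNA gene lay 1401 bp away on the other side. No annotated protein-coding gene spans either of these summits, and neither held a LAG-1 site within 100 bp. Their plus strands are shown because they are the intergenic peaks of the group, and capitals mark the summit and 10 bases on each side:
col-71: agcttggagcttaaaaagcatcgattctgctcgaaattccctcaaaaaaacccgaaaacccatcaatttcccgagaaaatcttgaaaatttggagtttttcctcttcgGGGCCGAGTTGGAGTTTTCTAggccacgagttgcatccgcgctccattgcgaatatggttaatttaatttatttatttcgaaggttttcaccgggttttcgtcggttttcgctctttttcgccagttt
col-176: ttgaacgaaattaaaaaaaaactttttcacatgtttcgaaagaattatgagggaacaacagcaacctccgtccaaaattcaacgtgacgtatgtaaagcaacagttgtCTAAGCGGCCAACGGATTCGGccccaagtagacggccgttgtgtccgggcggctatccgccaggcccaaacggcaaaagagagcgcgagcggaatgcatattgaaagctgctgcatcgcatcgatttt
For col-71 48.3% of the 100 bp on each side of the summit was repeat-masked, against 0% at col-94 and col-163.

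The peak at col-48, at I:3010837-3011072, had a signal of 69.8, rank 118, and an IDR of 0.00439. Its summit lay 271 bp into the gene in a coding exon, but col-48 is itself nested in an intron of mek-2, which encodes a MAP kinase kinase of Ras signalling on the opposite strand. A non-coding RNA gene lay 337 bp away. The replicates gave 39.4 and 28.2. No LAG-1 site lay near the summit, and the closest col protein was that of col-14 at 48.7% identity.

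**Figure D1:**
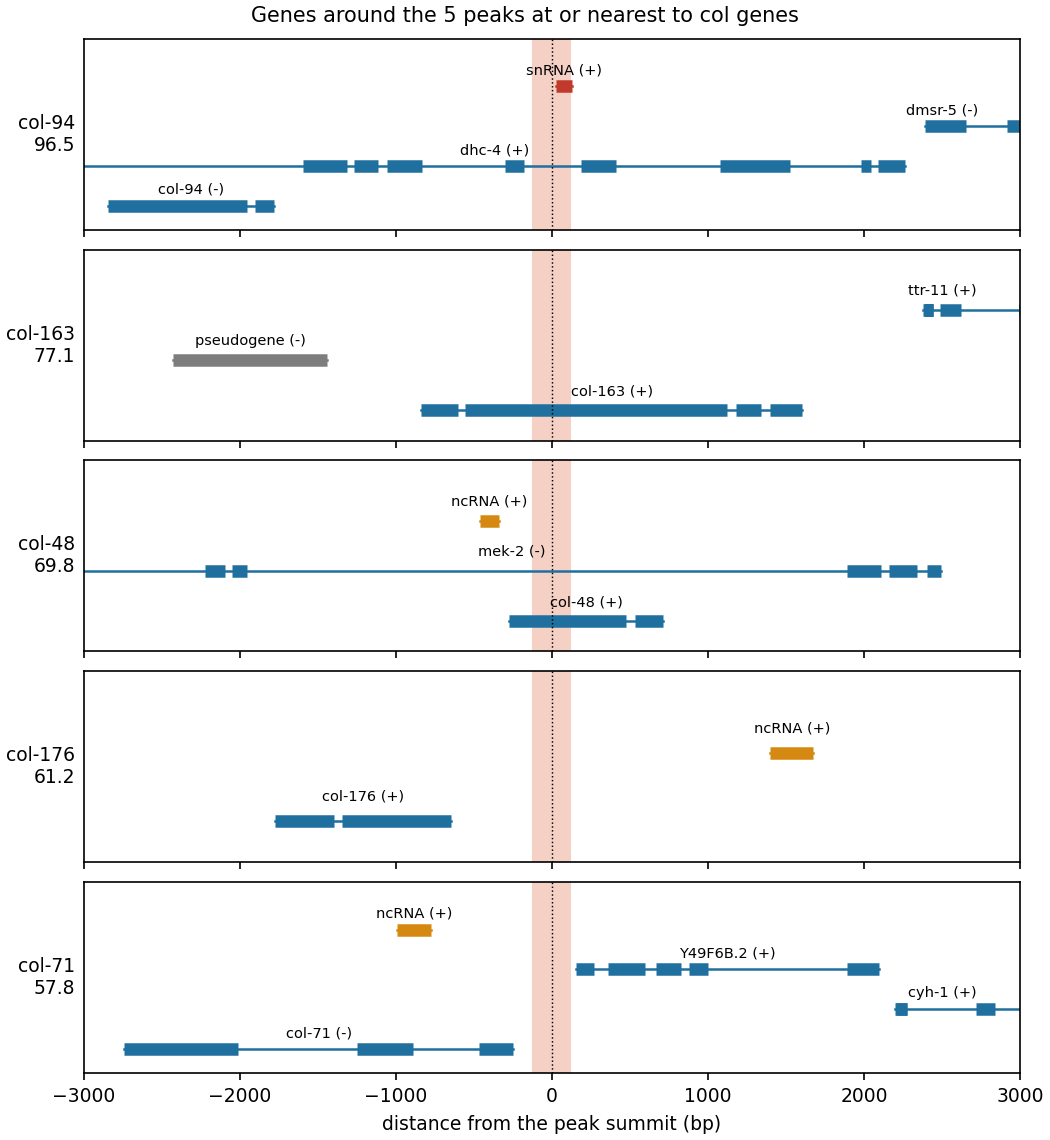
Annotated genes within 3000 bp of the 5 peak summits (x axis, bp from the summit, plus strand to the right). Boxes are exons or whole non-coding genes, lines are introns, shading is the 236 bp peak, and the value under each name is the peak signal. The snRNA gene starts inside the col-94 peak, mek-2 spans the col-48 peak, and the summits at col-176 and col-71 lie between genes.

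Strength of support differed among these peaks beyond the IDR. By the false discovery rate that the peak caller itself assigned, the value was 0.208 at col-94, 0.206 at col-163, 0.305 at col-48, 0.701 at col-176 and 0.892 at col-71. Over the 289 peaks of the list it was 0.180 at the lowest, 0.414 at the median and 1.39 at the highest. The peaks at col-176 and col-71 were thus above the median rate. In the authors' ranking of pooled reads the IDR was 0.00117 for col-94 and 0.00234 for col-163, and both were in the pooled list. It was 0.0254 for col-48, 0.0131 for col-71 and 0.0151 for col-176, and none of these was in the pooled list, which reached 1.68% of all genes. That list held 1 further col gene, col-184, whose strongest entry lay in a coding exon with a signal of 43.1, an IDR of 0.0632 between replicates and 0.00889 in the pooled ranking. The own rankings gave it 17.3 in replicate 1 and 29.3 in replicate 2.

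Beyond the peaks, an entry of the replicate ranking, which lists 125458 weak and strong candidates, lay in the span of 151 col genes. The exceptions were col-12, col-13, col-55, col-58 and col-133. Signals of the strongest entries ran from 16.0 to 96.5, with a median of 35.7 and quartiles of 29.9 and 41.0. Over all genes with an entry the median was 32.7 and the quartiles 27.3 and 39.0. The median over all 289 peaks was 66.4, which col-94, col-163 and col-48 exceeded. An IDR of 0.05 or below was reached by the strongest entry of 16 col genes, or 10.6% (6.63% to 16.5%), against 7.71% of all genes with an entry.

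**Figure D2:**
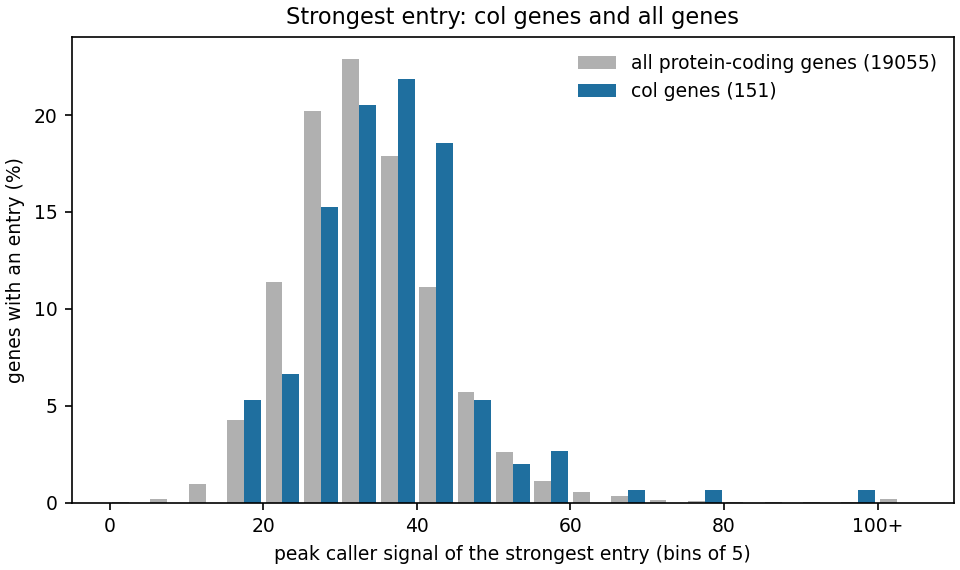
Share of genes (y axis, %) by peak caller signal of the strongest entry (x axis, bins of 5, the last bin open) for 151 col genes and 19055 genes with an entry. The distributions overlap widely, with medians of 35.7 and 32.7.

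Just outside the threshold lay col-42 and col-98, with IDR values of 0.0181 and 0.0182. At col-42 the signal was 57.9, with 22.5 in replicate 1 and 31.3 in replicate 2. At col-98 it was 58.1, with 21.3 and 35.7. Both signals were slightly above that of col-71, the gene just inside, and both entries lay in coding exons with a GC content of 66.2% and 64.2%. The highest signal without a peak was at col-103, 59.3 with an IDR of 0.0793. There the replicates were unequal, at 15.3 and 35.7, and 60.7% of the sequence around the summit was repeat-masked.

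Of the 10 col genes with the highest signal and no peak, 9 had the summit in a coding exon and 1, col-172, in the 5' UTR, 67 bp from the 5' end (signal 54.9, IDR 0.0253, 19.9 and 36.3 in the replicates). At col-20, col-124 and col-49 the replicates were close to each other, with 25.1 and 26.4, 24.5 and 26.3, and 24.1 and 23. Their pooled signals were 53.3, 51.0 and 47.2 and their IDR values 0.0195, 0.0218 and 0.0366. At col-123 and col-61 the replicates were far apart and in opposite directions, with 13.3 and 41.8 at col-123 (48.8, IDR 0.123) and 33.3 and 12 at col-61 (46.7, IDR 0.198). Summits at col-124 and col-123 also lay within other genes, qns-1, a glutamine-dependent NAD synthetase gene, and catp-6, a P-type ATPase gene. The gene col-99 encodes a transmembrane collagen rather than a secreted one. Its strongest entry had a signal of 47.7 at an IDR of 0.0396, 20.9 and 26.1 in the replicates, and lay 9068 bp into this long gene in a coding exon, where the nearest protein-coding start was that of daf-1, a TGF-beta type I receptor gene.

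**Figure D3:**
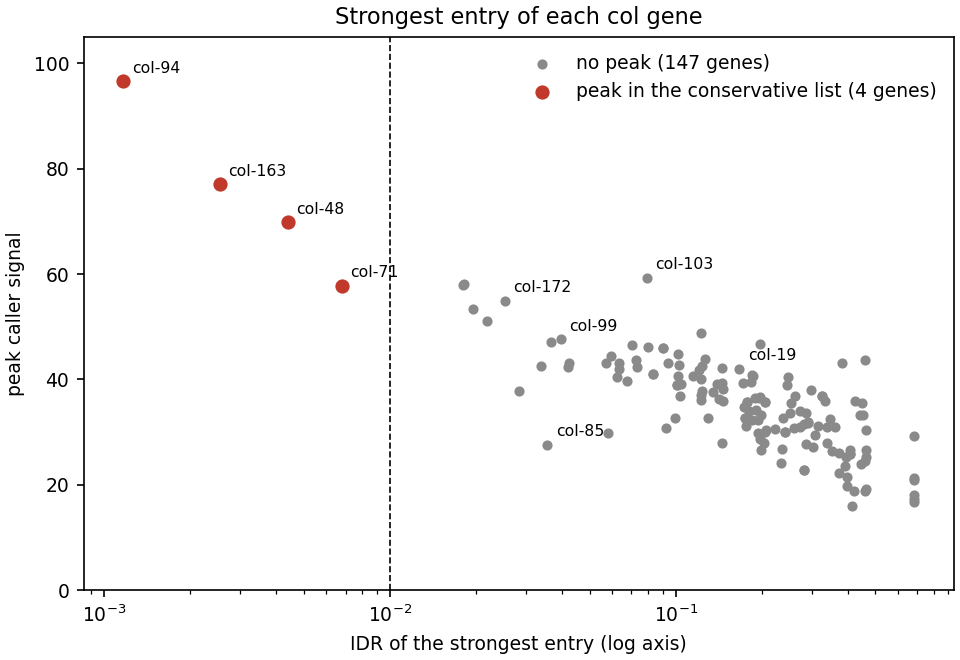
Peak caller signal (y axis) and IDR (x axis, log scale) of the strongest entry of 151 col genes; the dashed line is the threshold of 0.01. The 4 genes with a peak lie left of the line, and col-42 and col-98, the unlabelled points at 57.9 and 58.1, are the nearest to its right.

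None of 4 collagen genes of the adult cuticle, col-7, col-19, col-62 and col-119, had a peak at the stage sampled, which is near the background of 1.49% of all genes. At col-19, an adult-specific collagen gene controlled by the heterochronic timing pathway, the signal was 42.0 with an IDR of 0.167, 32.2 in replicate 1 and 12.8 in replicate 2, and the summit also lay within ZK1193.2. At col-119 it was 28.0 with an IDR of 0.338, 11.1 and 12.5 in the replicates. At col-7 it was 33.3 with an IDR of 0.454 and at col-62 it was 16.0 with an IDR of 0.413. Both had an entry in replicate 2 alone, of 23.2 and 9.63, and 16.0 was the lowest value of all 151 genes. The coding sequences of col-7 and col-62 are 99.7% identical.

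Among the chosen entries of col genes, signals in the replicates did not rise together. An entry of replicate 1's own ranking overlapped the strongest entry at 114 genes (median signal 17.5, range 4.17 to 48.4), and one of replicate 2 at 122 genes (median 20.7, range 6.29 to 52.5). At 93 genes both did, with replicate 2 higher at 61, and at 8 genes neither did. Across these 93 genes, which include the 4 with a peak and are not independent replicates, Spearman's rho between replicates was -0.10. The entries were chosen on signal from both replicates together, so the coefficient describes the chosen entries alone. The 4 genes with a peak were at least 28.2 in each replicate.

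**Figure D4:**
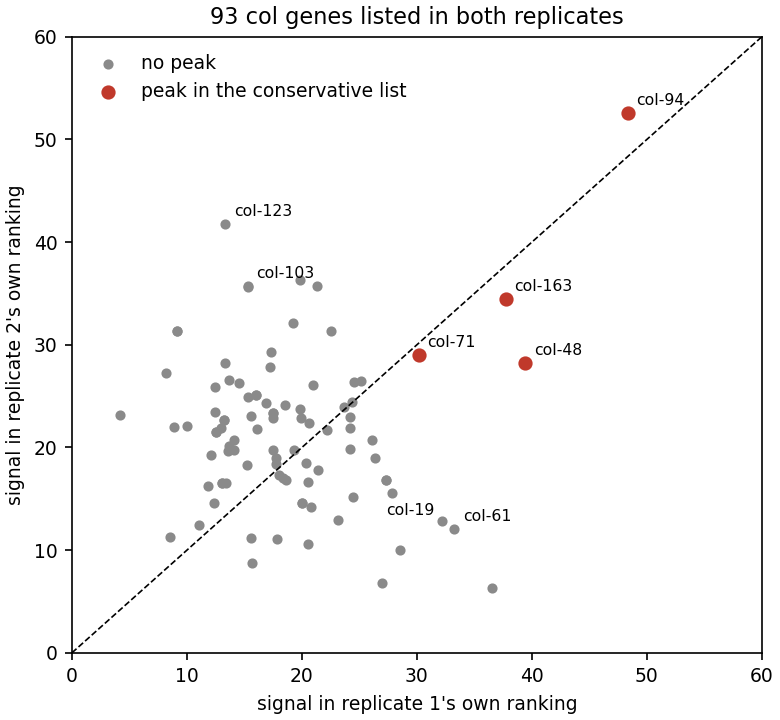
Signal in replicate 2 (y axis) against replicate 1 (x axis) at the 93 col genes listed in both own rankings; the dashed line marks equal values. The gene col-94 stands highest in both replicates, while col-123 and col-61 lie far from the line on opposite sides.

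Most summits at col genes lay inside the gene. The summit was inside the gene at 94 of 151 genes, or 62.3% (54.3% to 69.6%), against 52.8% of all genes with an entry. It was in a coding exon at 79 (not counted over all genes), in an intron at 12 and in the 5' UTR at 3. In the 500 bp upstream of the 5' end, where a promoter would lie, it was at 13 genes, or 8.61% (5.10% to 14.2%), against 11.8% of all genes. Another 19 lay from there to 1000 bp upstream and 25 from 1000 to 2000 bp upstream. Entries of any strength numbered 1.31 per kb in the 500 bp upstream of col genes, against 1.22 over all genes. Within gene bodies the values were 1.53 and 1.29. The interval for the upstream share of strongest entries holds the value over all genes, so that share was near the background. The densities per kb have no interval. For strongest entries inside col genes the median distance from the 5' end was 764.5 bp. The median signal was 36.4 inside and 33.2 upstream for col genes, and 33.5 and 31.9 for all genes.

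At col genes GC content moved with both position and signal. Within 100 bp of the summit the median GC content was 52.2% at col genes and 40.3% over all genes. It was at least 50% at 79 col genes, or 52.3% (44.4% to 60.1%), against 9.07% of all genes. For summits inside col genes the median was 55.7% and for those upstream 40.3%. Over all genes these medians were 40.8% and 39.3%, so the difference by position was small there. Across genes, which are not independent, Spearman's rho between GC content and signal was 0.28 for col genes and 0.30 for all genes. When genes were set side by side by GC content, the median signal of col genes was below that of all genes in 4 of 7 classes and above it in 3. At 60% or more it was 35.8 for 35 col genes and 39.2 for all genes of the class, and from 40% to 45% it was 39.0 for 19 col genes and 33.5 for all. The part of GC content in the higher overall median of col genes was not tested.

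**Figure D5:**
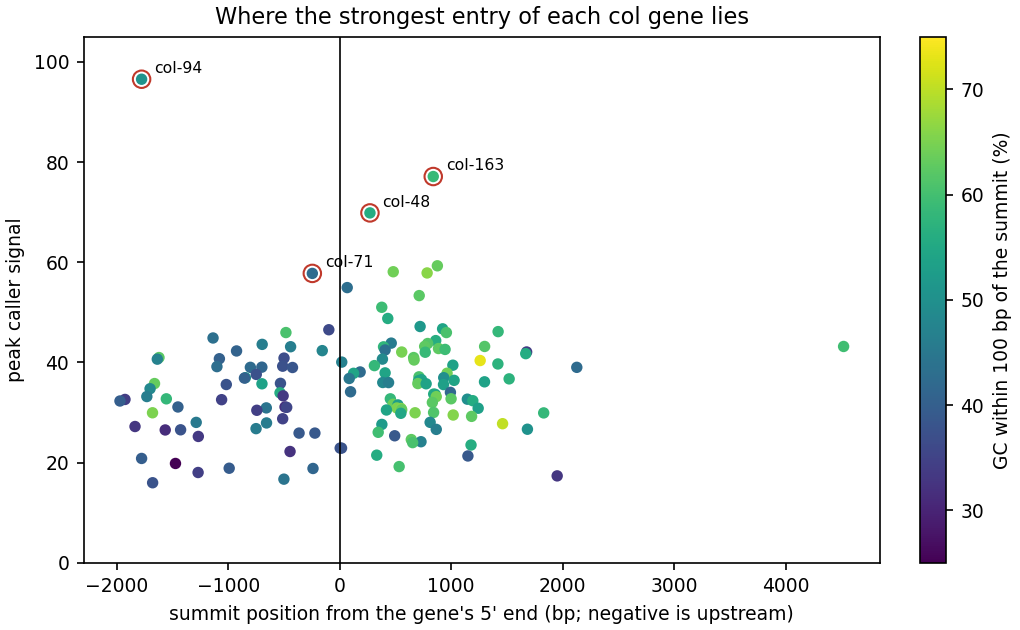
Peak caller signal (y axis) against distance of the summit from the 5' end of each col gene (x axis, bp, negative upstream), coloured by GC content within 100 bp of the summit. Points inside genes are mostly above 50% GC and points upstream mostly below; red rings mark the 4 peaks, and col-99, at 9068 bp, is beyond the axis.

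LAG-1 sites were found at few of these entries. A site lay within 100 bp of the summit at 7 of 151 col genes, or 4.64% (2.26% to 9.26%), against 6.83% of all genes with an entry. Apart from col-163 these were col-61, col-116, col-157 and col-64 with ATGGGAA, and col-39 and col-80, which share an entry with GTGGGAA 9 bp from its summit. Signals at the 6 genes without a peak ran from 24.2 at col-64 to 46.7 at col-61. A match of letters describes the sequence and does not show that the protein bound there.

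Many entries could not be given to a single gene. The 151 genes drew on 141 distinct entries, since 20 genes shared one with a neighbouring col gene, such as col-9 with col-44 (46.0), col-39 with col-80 (41.0) and col-92 with col-93 (29.9). The nearest protein-coding start was that of the gene itself at 116 genes, of another col gene at 10 and of a gene outside the group at 25. At 40 genes the summit lay within another protein-coding gene. Shared entries, nearest starts and overlapping genes were not counted over all genes, so these values are not said to be particular to col genes. A small RNA gene lay within 500 bp at 4 genes, or 2.65%, against 2.21% of all genes with an entry. Beside col-94 and its snRNA gene these were col-54, col-185 and col-85, each with a tRNA gene 16, 18 and 24 bp away and signals of 43.9, 36.9 and 27.6. More than 50% of the sequence around the summit was repeat-masked at 16 col genes, or 10.6%, against 10.5% of all genes.

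Near-identical copies within the family lacked an entry inside the gene more often than other col genes. The coding sequence of 28 col genes was at least 95% identical to that of another over at least 80% of its length, and 7 of these 28, or 25% (12.7% to 43.4%), had no entry inside the gene, upstream sequence aside. Among the other 128 genes it was 4, or 3.13% (1.22% to 7.76%). Over the whole searched span, upstream sequence included, 2 of the 28 and 3 of the 128 had no entry. The share was not counted over all protein-coding genes, and genes that are copies of each other are not independent. The 7 were col-3, col-7, col-12, col-13, col-126, col-127 and col-155. The coding sequences of col-3 and col-117, and those of col-126 and col-127, were 100% identical, and those of col-12 and col-13 were 99.5% identical. Unlike col-3, col-117 had 1 entry inside the gene. How reads that match several places were treated is not given in the sources used here, so a lack of LAG-1 signal at these 7 genes cannot be told apart from reads that could not be placed.

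Over the chromosomes, col genes were unevenly spread but their signals were similar. Chromosome IV held 41 of them and chromosome III 12. Median signals were 37.8 on I, 39.2 on II, 33.1 on III, 33.4 on IV, 32.0 on V and 37.8 on X, each within the quartiles of the whole family. Chromosomes IV and X, the latter with 27 col genes, had no peak in the span of a col gene. Beside the share of 1.49% over all protein-coding genes, none among 41 or 27 genes is near the background. The share was not counted by chromosome.

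Other collagen, cuticle and moulting genes gave no peak in any of 5 lists. Beside a share of 1.49% over all protein-coding genes, none in lists of 4 to 20 genes is near the background. Among the named cuticle collagens, whose names are other than col, 20 of the 21 listed were annotated and 19 had an entry, with a median signal of 32.5. The gene dpy-2, which encodes a collagen of the annular furrows, came closest to the threshold in any list, with 62.4 and an IDR of 0.0104 in the body of the gene. The next by signal in that list was dpy-9, with 44.4, although its IDR was 0.305. The 13 genes for collagen processing and cross-linking had a median of 36.3, led by let-268, a lysyl hydroxylase gene (55.6, IDR 0.0141), and pdi-2, which encodes the disulphide isomerase subunit of prolyl 4-hydroxylase (55.6, IDR 0.0205).

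In the list of basement membrane and other collagens, 4 genes had a median of 38.0, and the type IV collagen genes emb-9 and let-2 had 45.3 and 42.5. The 6 cuticlin genes, which encode non-collagen cuticle proteins, had a median of 38.5, with 45.4 at cut-1 and 43.8 at cut-4. The 10 regulators of moulting and of cuticle genes had a median of 40.4, with 52.1 at lin-42, a Period homologue that times the moults (IDR 0.0240), and 50.6 at nhr-25, a nuclear receptor gene (IDR 0.0282). A LAG-1 site was found at the strongest entry of 3 of the 13 processing genes and of none in the other lists, beside 6.83% of all genes with an entry, and the lists were not tested against each other. Medians of genes of different length are not strictly comparable, since a longer span offers more entries to choose from.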

How the data were processed

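Peak lists on ce11 were deposited as IDR-ranked and IDR-thresholded entries made from precipitated and control DNA, per the notes deposited beside the lists. Aligner and peak caller are not given in the sources used. Signal was deposited as a strength per entry set by the peak caller, and the IDR was read from −log10 values deposited in the rankings. Negative log10 values deposited in the conservative list were read, from the order of the columns, as the caller's own false discovery rate. Some of these values exceed 1. The score deposited in the thresholded lists follows the IDR and was not printed. Overlapping entries of the conservative list (291) were merged at 1 bp into 289 peaks. Signals per replicate came from the strongest overlapping entry of that replicate's own ranking (61205 and 56445 entries), since the series lists do not name the replicate of their columns. The own lists held 47 and 77 peaks and the pooled list 316.

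The NCBI sequence of WBcel235 (ce11) and the Ensembl gene models of release 115 were used. Coding sequence and protein identity came from BLAST 2.17.0 and Biopython 1.88. Wilson intervals, counts and figures were made with Python 3.11.15, pandas 2.3.3, matplotlib 3.10.9, NumPy 2.4.6 and SciPy 1.17.1. No hypothesis test was run.

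Members, lists and rules were chosen with earlier results of these data known. Named were every col gene with a peak, the 10 with the highest signal without one, those beside the threshold, col-7, col-19, col-62, col-119 and col-99, the closest col protein of each gene with a peak, and the top 2 genes of each other list, which held no peaks. The gene ram-4 was listed among the named cuticle collagens and was not matched by name. Other genes were named because they overlap or adjoin a summit, or after their values were seen. The sequence of the peak at col-94 is not reported here.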

Additional observations from a re-analysis of the deposited data

How the results depend on the processing

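Across 41 alternative settings of the 5 summaries, 26 values stayed close to the reported ones and 15 moved, by the rule of 1.5 times for counts and, for the median signal, 1 SD of the replicate medians (2.13). The count of 4 col genes with a peak ranged from 1 to 1 when a replicate was left out, col-94 each time. It was 2 with upstream sequence alone (col-71 and col-94) and 18 at an IDR of 0.05 or below. Those 18 include genes where any entry in the span passed. By the strongest entry alone it was 16, beside 7.71% of all genes with an entry. The share of all genes counted as for the 18 was not computed. The count was 3 with the pooled-read list (col-94, col-163 and col-184). It was also 3 from 1000 bp upstream (without col-94) and 3 at an IDR of 0.005 (without col-71). Giving each summit to the nearest 5' end alone kept 4, with col-176 in place of col-71. The median signal was 18 to 21.0 in a single replicate's ranking, which has its own scale, and 26.6 with upstream sequence alone. Genes with a LAG-1 site went from 7 to 13 with a window of 250 bp and to 3 with GTGGGAA alone. The share of all genes with a site was not computed at these settings. Of the 4 peak summits, 3 had a col gene as the nearest start. That count was 1 to 1 without a replicate, 1 with upstream sequence alone and 16 at an IDR of 0.05. The group was picked for such peaks, so the count describes the choice, and no share over all genes was computed. Peaks beside a small RNA gene went from 1 to 0 with 1000 bp upstream and to 2 at an IDR of 0.05. The cause of these shifts was not tested beyond the entries each setting adds or removes. No paired analysis was possible because the series has 1 group. Depth is unknown, so no error of a single signal can be given.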
